A study of Apis mellifera with 24 samples.

Results

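Cyclin B3 (CycB3, transcript XM_006566305.1) was followed in the ovaries of honey bee queens (Apis mellifera ligustica) through ovary activation, oviposition inhibition and oviposition recovery. The transcript was taken by its identifier, and it is 1 of 21596 transcripts in the deposited mRNA table and the only row of its gene there. The study had already singled out CycB3 as up-regulated in ovary activation in these same samples. The tests of its rise given below are therefore not independent of that choice. The table holds 12 libraries, each made from the ovary of 1 queen, and all queens were sisters from 1 source colony. The first group of 3 were egg-laying queens, inseminated by instrument and laying. A further 3 were egg-laying inhibited queens, laying queens confined for 7 days to a small cage within their own hive. The 3 egg-laying recovery queens had been caged in the same way, then released for a day, and were laying again. The last 3 were virgin queens. All 9 mated queens received semen of the same source and quantity. Egg-laying and virgin queens thus differed in insemination and in laying together, and the ages at dissection are not given in the sources used here, so these cannot be told apart.

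B-type cyclins are the regulatory partners of the cyclin-dependent kinase Cdk1, and their build-up and destruction time the entry into and the exit from cell division. Cyclin B3 is the member of this family best known from the germline: in Drosophila and in mouse, females that lack it fail to complete the meiotic divisions of the oocyte. In the queen's ovary, germ cells divide into cysts of nurse cells and an oocyte, and the nurse cells then fill the oocyte with maternal RNA and protein, cell cycle regulators included. The pathway maps that the study used also place B-type cyclins downstream of FoxO, the transcription factor restrained by insulin signalling.

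In the genome build of the files, Amel_4.5, the CycB3 gene lies on chromosome 11 from 9396773 to 9400635 and spans 3863 bp. It is in the interval that the study examined as an ovary size QTL (quantitative trait locus). Among the genes that the study listed in this interval, the nearest on 1 side is peroxisome biogenesis factor 1. It lies 33 bp away, from 9400669 to 9407832. On the other side, the nearest listed gene lies 2141 bp away, from 9390484 to 9394631. That gene encodes a run domain Beclin-1-interacting and cysteine-rich domain-containing protein (called Rubicon-like here).

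CycB3 was abundant in every ovary from a mated queen and low in every ovary from a virgin queen. In FPKM, fragments scaled to the length of the transcript and to all mapped fragments of the library, it stood at 130.4, 122 and 156 in the egg-laying queens. It stood at 127, 141 and 98.0 FPKM in the egg-laying inhibited queens. The egg-laying recovery queens had 129, 90.3 and 101 FPKM, and the virgin queens had 13.1, 16.6 and 9.49 FPKM. The 3 mated groups overlapped one another, and none of them overlapped the virgin queens. The lowest mated queen, a recovery queen at 90.3 FPKM, had 5.45 times the level of the highest virgin queen, at 16.6 FPKM. Ranges that did not overlap between the 9 mated and the 3 virgin queens were common in these libraries, since 24.0% of the 17924 transcripts tested were higher and 21.9% lower in this way.

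**Figure D1:**
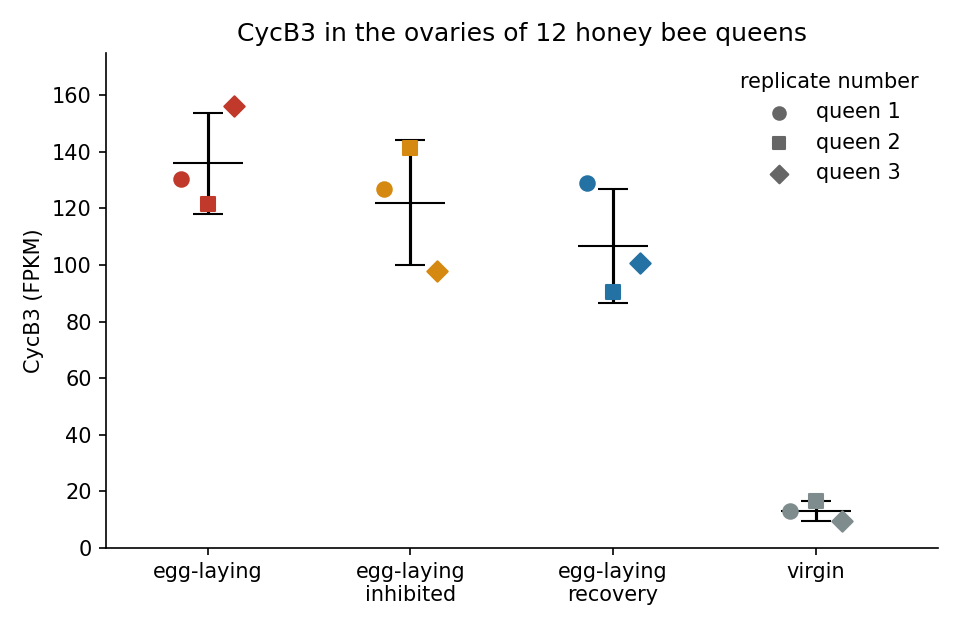
CycB3 level (FPKM, linear axis from 0) in each of 12 queens, by group; point shape gives the replicate number, the horizontal line the group mean and the error bar 1 SD (n = 3 queens). The 9 mated queens lie between 90.3 and 156 FPKM and the 3 virgin queens between 9.49 and 16.6 FPKM.

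Within a library, CycB3 stood in higher ranks of the transcriptome in mated queens than in virgin queens. In mated queens, between 95.6% and 97.9% of all transcripts in the table had a level at or below that of CycB3, and in virgin queens between 67.7% and 76.4% did. It made up 0.0166% to 0.0300% of the summed FPKM of a library in mated queens and 0.00267% to 0.00409% in virgin queens. The summed FPKM itself ran from 521059 to 559542 in mated queens and from 355905 to 405177 in virgin queens, and its part in the differences was tested by setting all libraries to the same sum, given below beside the result.

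In ovary activation (egg-laying queens vs. virgin queens), CycB3 rose by 3.31 on the log2(FPKM + 1) scale (standard error 0.199, 95% interval 2.87 to 3.74), or 9.91-fold (7.33 to 13.4). The test was limma, a linear model with a moderated variance fitted to all 17924 transcripts with a mean of at least 0.1 FPKM, and the Benjamini-Hochberg adjusted p was 1.18e-07. Of those transcripts 28.0% were called higher and 27.5% lower in this comparison, at an adjusted p under 0.05. By the size of its rise, 99.0% of the transcripts tested had a lower log2 change and CycB3 ranked 173 from the top. The median log2 change of all transcripts was -0.05. With every library set to the same summed FPKM, the rise of CycB3 was 2.84 on the log2 scale while the median of all transcripts moved to -0.36, so the distance of CycB3 from that median was 3.19, against 3.36 without this scaling. The same scaling altered the split of calls over all transcripts to 3073 higher and 7967 lower, against 5024 higher and 4935 lower.

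**Figure D2:**
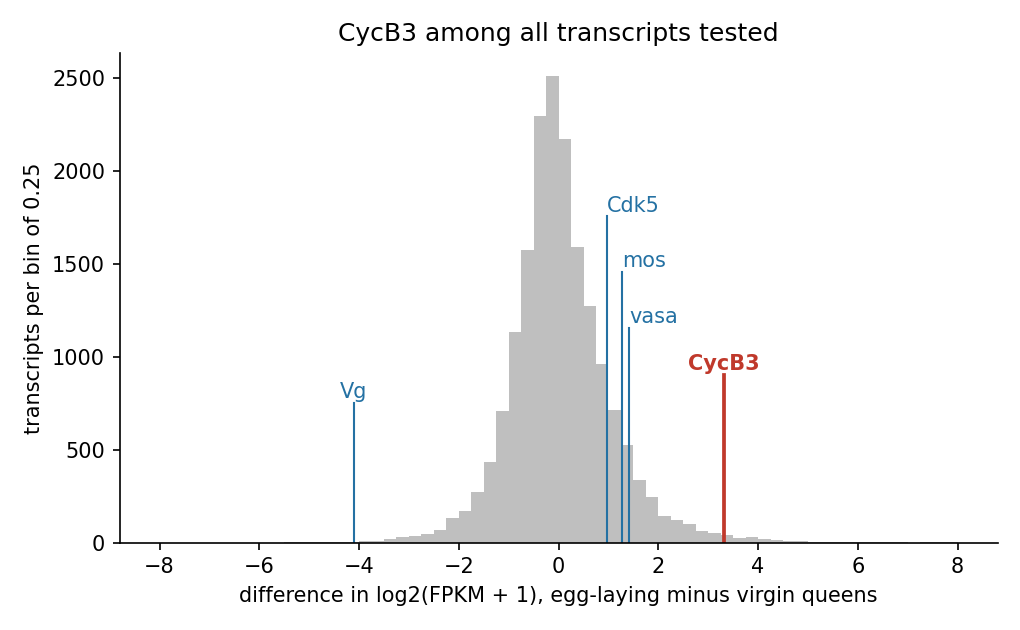
Histogram of the difference in log2(FPKM + 1) between egg-laying and virgin queens for the 17924 transcripts tested (y axis: transcripts per bin of 0.25), with vertical lines at 5 named genes whose heights carry no value. CycB3 lies at 3.31, to the right of Cdk5 (0.97), mos (1.28) and vasa (1.42), and Vg lies at -4.11.

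CycB3 was also higher than in virgin queens in the mated queens that were prevented from laying. In egg-laying inhibited queens vs. virgin queens the log2 change was 3.15 (standard error 0.199, 95% interval 2.71 to 3.58, limma adjusted p = 1.79e-07), a comparison in which 27.5% of transcripts were called higher and 26.3% lower. In egg-laying recovery queens vs. virgin queens it was 2.95 (standard error 0.199, 95% interval 2.52 to 3.39, limma adjusted p = 3.62e-07), where 27.3% were called higher and 25.8% lower. These comparisons share the 3 virgin queens with that of ovary activation, so they are not separate evidence of the low level in virgin queens. In an exact two-sided permutation test over queens, the 9 mated queens differed from the 3 virgin queens by 3.14 on the log2 scale with p = 0.00909, the smallest p that this design allows.

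Among the mated queens the order of the group means was egg-laying, inhibited and recovery, from high to low, and neighbours in this order did not differ beyond their spread. The means were 136 ± 17.9 FPKM in egg-laying queens, 122 ± 22.0 FPKM in egg-laying inhibited queens and 107 ± 20.04 FPKM in egg-laying recovery queens, against 13.1 ± 3.54 FPKM in virgin queens (SD, n = 3 each). In oviposition inhibition (inhibited queens vs. egg-laying queens) the log2 difference was -0.16, with a 95% interval from -0.60 to 0.27 and a limma adjusted p of 0.903. In oviposition recovery (recovery queens vs. inhibited queens) it was -0.19, with an interval from -0.63 to 0.24 and an adjusted p of 0.717. Between the ends of the order, recovery queens vs. egg-laying queens, it was -0.36, with an interval from -0.79 to 0.08 and an adjusted p of 0.529. Of all transcripts, 0.139% were called in oviposition inhibition, 0.658% in oviposition recovery and 0.0502% in recovery queens vs. egg-laying queens. These shares stand for 25, 118 and 9 transcripts, and the numbers depended on single queens, since leaving out 1 queen gave 9 to 35, 19 to 230 and 2 to 30.

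Whether CycB3 differed between queens that were laying at dissection and caged ones was asked over all 9 mated queens. The egg-laying and recovery queens together differed from the inhibited queens by -0.01 on the log2 scale (standard error 0.172, 95% interval -0.39 to 0.36, limma adjusted p = 0.988), and 0.268% of transcripts were called in this comparison. The interval, as a fold, runs from 0.763 to 1.29. Differences inside that range are compatible with the values of these queens, and the range is not a limit of detection. The missing call does not show that the levels were equal.

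**Figure D3:**
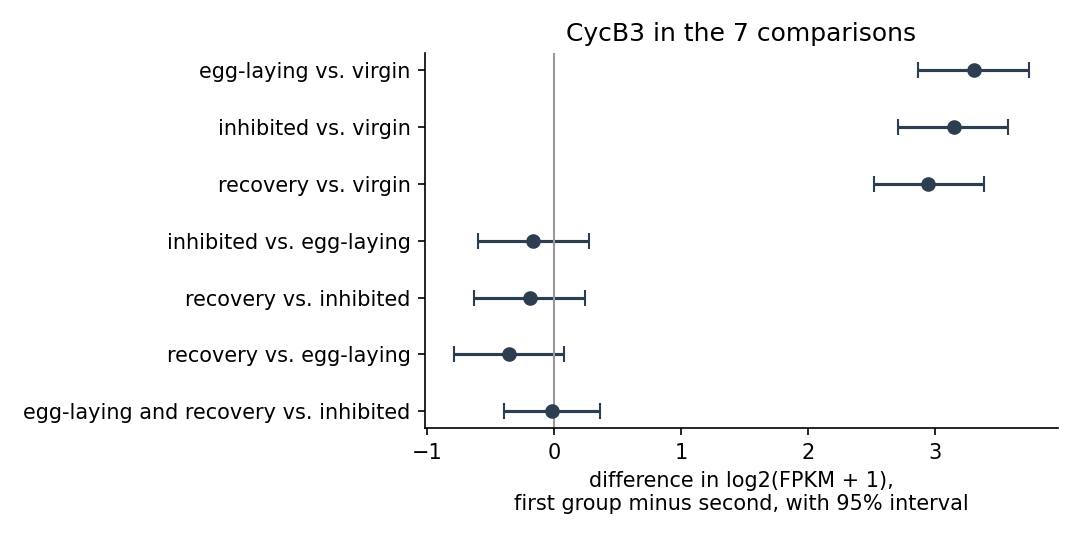
Difference of CycB3 in log2(FPKM + 1) for 7 comparisons, first-named group minus second, with 95% intervals from limma. The 3 comparisons with virgin queens lie between 2.95 and 3.31, and the intervals of the 4 comparisons among mated queens all include 0.

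The spread of CycB3 between queens of 1 group was wide for its level. The residual SD on the log2 scale was 0.28, against a median of 0.138 over 1135 transcripts of a similar mean level, and 92.2% of those varied less. The coefficient of variation was 13.2% in egg-laying, 18.1% in inhibited, 18.8% in recovery and 27.1% in virgin queens. The highest and the lowest of the 9 mated queens differed 1.73-fold, and the highest and the lowest of the 3 virgin queens 1.75-fold.

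The partners of CycB3 in cell division could be followed only in part. Of the 7460 genes with an ID in the table, 453 have a symbol or a product name in the annotation used, and 0 of the 14 genes listed for mitotic entry (cyclin A, cyclin B and Cdk1 among them) and 0 of the 26 listed for anaphase and its checkpoint were matched. A transcript that RefSeq no longer lists was matched only where the study had listed it as changed in these samples, so counts among matched genes are not independent of those results. Of 22 other cyclins and cyclin-dependent kinases 1 was matched, Cdk5, a kinase best known from neurons. Its level was 27.9, 24.5 and 31.7 FPKM in egg-laying queens, against 14.8, 12.6 and 14 FPKM in virgin queens, a rise of 0.97 on the log2 scale (standard error 0.103, limma adjusted p = 9.69e-06). Of 22 DNA replication genes 1 was matched, the CDC6 homolog, which loads the replicative helicase at origins. CDC6 stood at 38.9, 37 and 31.7 FPKM in egg-laying queens and 18.8, 25 and 18.1 FPKM in virgin queens, a rise of 0.78 (standard error 0.12, adjusted p = 1.89e-04). Of all transcripts, 28.0% were called higher and 27.5% lower in ovary activation, so nothing is read from these single genes about their lists.

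The only gene matched of the 14 listed for meiosis rose, in a comparison that called 28.0% of all transcripts higher and 27.5% lower. With 1 gene, nothing is read from this count. The gene was mos (c-mos), a kinase of the oocyte that in vertebrates holds the mature egg in meiotic arrest. Its level was 8.86, 8.32 and 7.43 FPKM in egg-laying queens and 2.19, 3.75 and 2.54 FPKM in virgin queens. The log2 change was 1.28 (standard error 0.176, limma adjusted p = 7.26e-05). The inhibited queens had 8.61, 6.67 and 8.66 FPKM, within or near the range of the egg-laying queens. The recovery queens had 5.44, 5.16 and 6.42 FPKM, a difference from the inhibited queens of -0.43 that was not called (adjusted p = 0.294).

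Of the 17 germline genes listed, 3 were matched, of which 1 rose, 0 fell and 2 were not called, beside the 28.0% of all transcripts called higher and 27.5% called lower. The gene that rose was vasa, an RNA helicase of germ cells, with 311, 298 and 311 FPKM in egg-laying queens, against 96.7, 174 and 87.2 FPKM in virgin queens (log2 change 1.42, standard error 0.206, limma adjusted p = 1.14e-04). Neither nanos, a repressor of translation in germ cells (log2 0.31, adjusted p = 0.165, and -0.19 with libraries set to the same sum), nor aubergine, a PIWI protein of the piRNA pathway (log2 -0.11, adjusted p = 0.881), was called. In bulk ovary RNA, fewer cells of a type and less RNA per cell cannot be told apart, and this holds for CycB3 in virgin queens.

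CycB3 was also set against vasa within each library, a ratio that the scaling of libraries does not touch. The ratio does not tell a change in cell types from a change in RNA per cell. The ratio of CycB3 to vasa was 0.420, 0.408 and 0.503 in egg-laying queens, 0.578, 0.562 and 0.328 in inhibited queens and 0.465, 0.309 and 0.353 in recovery queens, against 0.135, 0.0954 and 0.109 in virgin queens. All 9 mated queens lay above all 3 virgin queens. The mean log2 ratio was 1.93 higher in mated queens, or 3.80-fold (exact permutation test, two-sided, p = 0.00909, the smallest p possible, n = 9 and 3). In ovary activation CycB3 rose by 3.31 and vasa by 1.42, so a higher ratio follows from values given above and is not separate evidence. How many other transcripts would part the queens in this way in a ratio with CycB3 is not given here. Against mos, the ratio of CycB3 ran from 11.3 to 23.7 in mated queens and from 3.73 to 5.98 in virgin queens. Against nanos it ran from 0.548 to 1.34 in mated queens and from 0.114 to 0.156 in virgin queens. Against aubergine, a gene of few FPKM, the ranges overlapped, at 5.60 to 122 in mated queens and 2.25 to 6.08 in virgin queens, with 1 recovery queen (replicate 2, at 5.60) below 1 virgin queen (replicate 2, at 6.08). The ratios to mos, nanos and aubergine were added after the data had been seen and carry no test.

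**Figure D4:**
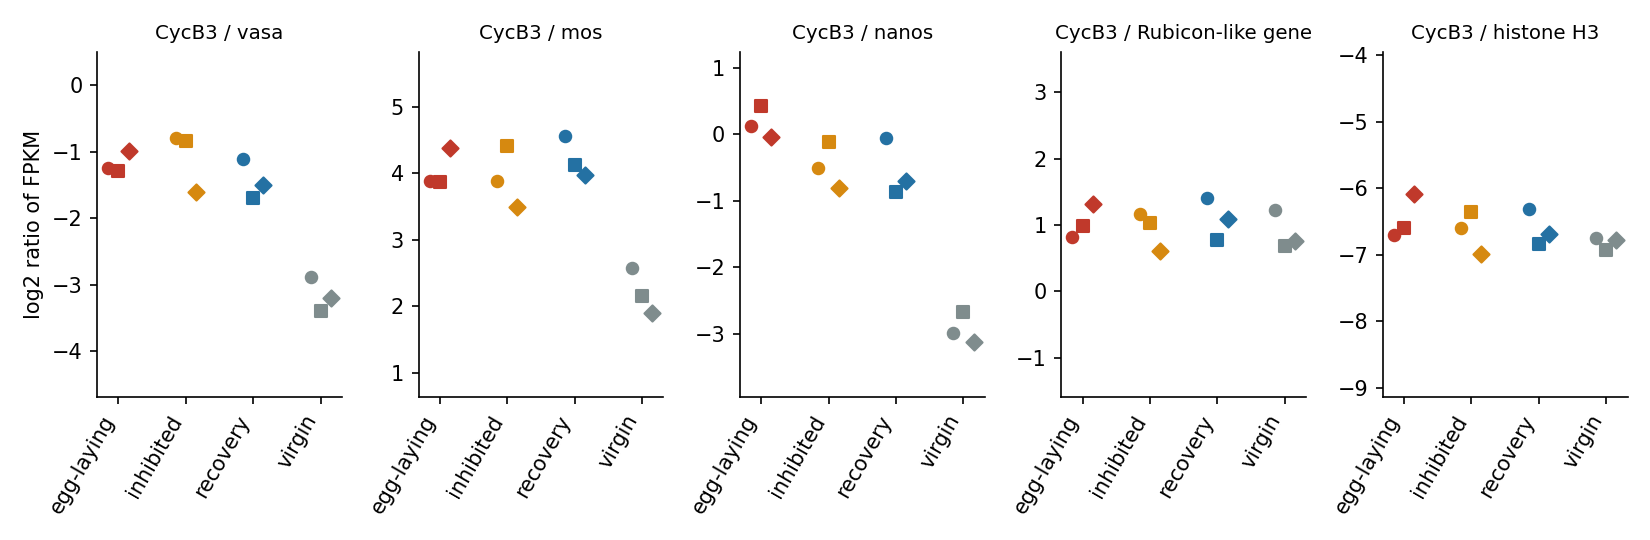
Log2 ratio of the FPKM of CycB3 to that of 5 other genes in each of 12 queens, by group (3 queens each, point shape gives the replicate number; each panel spans the same range of log2 units). The ratios to vasa, mos and nanos are higher in all 9 mated queens than in all 3 virgin queens, while those to the Rubicon-like gene and to histone H3 overlap.

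The FoxO pathway list, which the study tied to CycB3, held 37 genes, of which 5 were matched and 4 tested. None was called in ovary activation by limma, and 1 had an unadjusted p under 0.05, in a comparison that called 28.0% of all transcripts higher and 27.5% lower. With 4 genes, nothing is read from this count. Insulin receptor 2 stood at 10.8, 12.1 and 22.9 FPKM in egg-laying queens and 12.6, 7.52 and 12.9 FPKM in virgin queens, with overlap. Catalase, which breaks down hydrogen peroxide, had a log2 change of 0.16 (adjusted p = 0.0705), and Mad, which carries bone morphogenetic protein signals, one of -0.40 (adjusted p = 0.22). The mitochondrial superoxide dismutase Sod2 had a log2 change of -0.12 (adjusted p = 0.389). With libraries set to the same sum, 3 of the 4 genes were called lower by limma, Sod2 at -0.61 (adjusted p = 1.22e-04), catalase at -0.34 (adjusted p = 3.77e-04) and Mad at -0.82 (adjusted p = 0.0277), while insulin receptor 2 turned to -0.06 and was not called (adjusted p = 0.871).

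Most markers of the fat body and of muscle, tissues that a dissected ovary may carry, were higher in virgin queens. Of the 11 fat body and muscle markers matched (of 15 listed), 8 were lower in egg-laying queens, 2 higher and 1 not called, with a median log2 change of -1.06, beside -0.05 over all transcripts, of which 27.5% were called lower and 28.0% higher. Vitellogenin, the yolk protein made by the fat body, had 5.56, 7.28 and 5.29 FPKM in egg-laying queens and 125, 39.1 and 347 FPKM in virgin queens (log2 change -4.11, limma adjusted p = 3.43e-04). The muscle gene troponin T had 4.97, 3.78 and 3.33 FPKM in egg-laying queens, against 116, 52.2 and 70.7 FPKM in virgin queens (log2 change -3.94), and troponin I fell by 3.92. The 2 markers that were higher were hexamerin 70b (log2 change 1.03) and troponin C IIa (0.84, no longer called with libraries set to the same sum, adjusted p = 0.167). The hemocyte enzyme prophenoloxidase ran from 1.03 to 7.74 FPKM in mated queens and from 1.75 to 2.56 FPKM in virgin queens. The part of these tissues in the low CycB3 of virgin queens was not tested. The ratio to vasa compares CycB3 with 1 other ovarian gene and is not such a test.

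The genes beside CycB3 on the chromosome changed in both directions. Of the nearest 5 on each side with a matched transcript, in the order of the newer Amel_HAv3.1 assembly, 9 were tested, of which 3 rose, 2 fell and 4 were not called, beside the 28.0% of all transcripts called higher and 27.5% called lower. Some of these genes were matched to a transcript or named only because the study listed them as differentially expressed in these samples, so the count is not independent evidence. The Rubicon-like gene, whose mammalian counterpart restrains autophagy, had 73.8, 61.2 and 62.4 FPKM in egg-laying queens and 5.63, 10.3 and 5.63 FPKM in virgin queens (log2 change 3.07, standard error 0.178, limma adjusted p = 9.27e-08). Next to it, the uncharacterized LOC102656650 had 55.3, 47.9 and 42.0 FPKM in egg-laying queens and 17.1, 19 and 14.5 FPKM in virgin queens (log2 change 1.46).

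The gene that lies 33 bp from CycB3 was not called here, although the study listed it among its changed genes of the interval. Peroxisome biogenesis factor 1, an ATPase of peroxisomal protein import, had 11.9, 11 and 12.5 FPKM in egg-laying queens, against 10, 6.52 and 6.83 FPKM in virgin queens, a log2 change of 0.56 (standard error 0.239, limma adjusted p = 0.0638). The ranges of these 2 groups did not overlap. The share of all transcripts with such a gap between 3 and 3 queens is not given here, so nothing is read from it. The lowest inhibited queen (8.76 FPKM) and the lowest recovery queen (7.93 FPKM) lay below the highest virgin queen (10 FPKM). The ratio of CycB3 to peroxisome biogenesis factor 1 ran from 5.47 to 16.3 in mated queens and from 1.31 to 2.54 in virgin queens. Further out on that side, a Sox-19b-like transcription factor gene stood at 86.0, 83.5 and 99.0 FPKM in egg-laying queens and 11.8, 21.5 and 10.8 FPKM in virgin queens (log2 change 2.59, limma adjusted p = 5.36e-07). The 2 that fell were the nuclease MUS81 (-0.68) and the fibrillin-2-like gene (-1.37). The odorant receptor Or98 was at 0.381 FPKM or less in every library, and Or105 was too low to be tested.

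**Figure D5:**
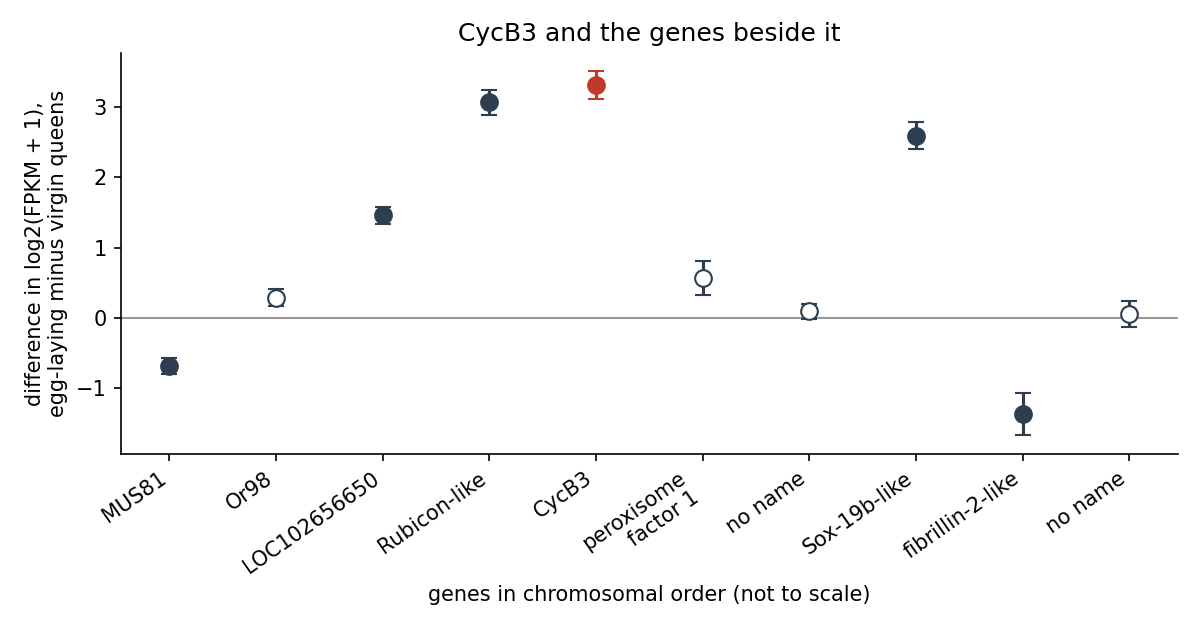
Difference in log2(FPKM + 1) between egg-laying and virgin queens for CycB3 (red) and the 9 tested genes among the 5 on each side of it, in chromosomal order and not to scale; error bars are 1 standard error, and filled points are called at an adjusted p under 0.05. The Rubicon-like gene (3.07), CycB3 (3.31) and the Sox-19b-like gene (2.59) stand above the others, and peroxisome biogenesis factor 1 (0.56) lies between them uncalled.

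Of 73 genes that the study listed in the ovary size interval, 8 besides CycB3 have a name tied to cell division, DNA or the cytoskeleton of dividing cells, a list made after the data had been seen from genes that the study chose as changed in these samples. Of these, 6 rose and 2 fell in ovary activation, beside the 28.0% of all transcripts called higher and 27.5% called lower. The SHC SH2 domain-binding protein 1 homolog had 59.4, 66.7 and 58 FPKM in egg-laying queens and 8.77, 20.1 and 14 FPKM in virgin queens (log2 change 2.09, limma adjusted p = 1.78e-05). The motor protein kinesin 3B had 15.6, 14.1 and 17.8 FPKM in egg-laying queens and 4.09, 3.76 and 3.67 FPKM in virgin queens (log2 change 1.79, adjusted p = 2.91e-07). Katanin p80, a subunit of a microtubule-severing enzyme (1.31), DNA topoisomerase 1, which relaxes supercoiled DNA (1.17), CDC6 (0.78) and the chromatin remodeller Ino80 (0.68, no longer called with libraries set to the same sum, adjusted p = 0.0767) made up the rest of the rise. MUS81 (-0.68) and the G-protein-signaling modulator 2, which orients the spindle (-0.56), fell. The log2 change of CycB3, at 3.31, was larger than that of each of the 8, a difference that was not tested.

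None of the 36 genes tested over these lists, prophenoloxidase and the histones not counted, was called in oviposition inhibition or in oviposition recovery by limma. Of all transcripts, only 0.139% and 0.658% were called in these comparisons, so this is not a result about the listed genes. At an unadjusted p under 0.05 there were 6 in oviposition inhibition, of which 5 were fat body or muscle markers, and 7 in oviposition recovery. The share of all transcripts at that unadjusted threshold is not given here, so nothing is read from these counts. Vitellogenin stood at 21.8, 54.0 and 23.6 FPKM in inhibited queens and 5.56, 7.28 and 5.29 FPKM in egg-laying queens, without overlap and without a call (limma adjusted p = 0.414). The share of all transcripts without such overlap is not given here. The study, which used DESeq, listed vitellogenin as up-regulated in oviposition inhibition and down-regulated in oviposition recovery in these samples. It also called more mRNAs than were called here in both comparisons.

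The transcripts with the profile most like that of CycB3 were ranked by the root mean square difference (RMS) between log2(FPKM + 1) profiles over the 12 libraries, each centred on its own mean, among 13329 transcripts with a mean of at least 1 FPKM. The RMS of CycB3 about its own mean was 1.38, and the median RMS to other transcripts was 1.37. The 8 most alike with a gene ID lay between 0.148 and 0.197, and of these only Adar, which edits adenosine in double-stranded RNA, has a symbol (RMS 0.17). Adar ran from 165 to 225 FPKM in mated queens and from 14 to 24.9 FPKM in virgin queens. The nearest without a name, XM_006568043.1, ran from 34.7 to 66.3 FPKM in mated queens and from 3.78 to 6.22 FPKM in virgin queens.

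Among transcripts with a symbol or a product name, Adar was followed by the stress response protein NST1 (RMS 0.206), histone H3 (0.238), the trehalose transporter Tret1 (0.242 and 0.267 for its 2 transcripts), the Rubicon-like neighbour (0.25), the uncharacterized LOC725821 (0.253) and FAR1 (0.256). The Rubicon-like gene ranked 39 of 13329 in likeness. The ratio of CycB3 to it was 1.77, 1.99 and 2.50 in egg-laying queens, 2.23, 2.05 and 1.53 in inhibited queens and 2.65, 1.70 and 2.13 in recovery queens, against 2.33, 1.61 and 1.69 in virgin queens, with overlap. Histone H3, a core of the nucleosome, ran from 10300 to 13500 FPKM in mated queens and from 1040 to 2010 FPKM in virgin queens. The ratio of CycB3 to it ran from 0.00788 to 0.0146 in mated queens and from 0.00826 to 0.00931 in virgin queens. The study listed histone H3, under the same gene ID, as down-regulated in ovary activation. That is the opposite direction to the values here, and the cause was not tested. These genes were chosen for their likeness, so their values are a description and carry no test.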

How the data were processed

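Ovary RNA was depleted of rRNA, made into strand-specific libraries and sequenced as paired ends. The reads were aligned to Amel_4.5 with TopHat2 2.0.9, per the submitters' processing notes, and the authors deposited FPKM values per RefSeq transcript. The notes also name HTSeq 0.6.1, and the paper names Cufflinks for the assembly and annotation of transcripts. Read counts and hence the depth of a library are not known from FPKM, so no counting interval is given. Where a gene had more than 1 transcript row, the row of highest mean FPKM stood for it.

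Differences were tested with limma 3.58.1 in R 4.3.3 on log2(FPKM + 1), with trend, over transcripts with a mean of at least 0.1 FPKM (17924 of 21596), in 1 fit of the 4 groups. The pseudocount of 1 makes the fold of low genes too small. P-values were adjusted by Benjamini-Hochberg within each comparison and called under 0.05. Permutation tests over queens were exact (scipy 1.17.1). Gene IDs were paired with 58.1% of transcripts through RefSeq genes of Amel_HAv3.1 and the study's tables of changed genes. Ratios to cyclin A, cyclin B and Cdk1 were not computed, since the tables used pair none of them with a transcript. The script was tested on simulated data.

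The members and lists were chosen with earlier results of these data known. The named genes were CycB3, from each list up to 2 called genes with the largest and 2 with the smallest change, 5 genes on each side of CycB3 and the 8 transcripts most alike. Genes outside this rule (the FoxO and germline genes not called, the remaining list members, histone H3 and prophenoloxidase) were named after their values were seen. The small RNA libraries are not analysed here.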

Additional observations from a re-analysis of the deposited data

How the results depend on the processing

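The rise of CycB3 over virgin queens kept its direction and its call in all 23 alternatives for each of 3 comparisons (pseudocount, filter, scaling, array weights, replicate block, groups fitted alone, a queen left out), with log2 changes from 2.84 to 3.49 in egg-laying, 2.70 to 3.32 in inhibited and 2.50 to 3.13 in recovery queens. Among mated queens no alternative gave an adjusted p under 0.05 (0.323 to 1.0). Laying vs. inhibited queens, near 0 at -0.01, ran from -0.16 to 0.10 when 1 queen was left out and turned positive in 5 of 12 such fits. The ratio to vasa ran from 1.81 to 2.06 when 1 queen was left out and was 1.95 from medians, with p from 0.0121 to 0.0455. FoxO genes called numbered 0, but 1 with no filter, 3 with the same sum, 2 with quantile normalization, 2 with array weights and 0 to 2 with a queen left out. Germline genes called numbered 1, or 1 to 2 with a queen left out; the cause was not tested. Replicate numbers showed no clear pairing of queens. Correlations of same-numbered queens were -0.10 to 0.15 (3 of 18 over 0.1), against -0.17 to 0.14 for other numbers (5 of 36 over 0.1). With 3 queens per group, these correlations cannot exclude a pairing. A replicate block cannot move a log2 change in this balanced design (3.31 for CycB3 in ovary activation). With it the adjusted p of CycB3 was 1.21e-06, and transcripts called in ovary activation numbered 5028 higher and 4928 lower, but 14 in place of 25 in oviposition inhibition and 5 in place of 9 in recovery vs. egg-laying queens. Array weights gave 90, 485 and 108 calls in oviposition inhibition, oviposition recovery and recovery vs. egg-laying queens, in place of 25, 118 and 9. The 3 queens per group and FPKM without counts limit precision.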
